A study of Mus musculus with 27 samples.

Results

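Fatty acid synthesis and desaturation in the fetal mouse lung is described by 10 genes: the genes for acetyl-CoA supply and chain building Acly, Acaca and Fasn, the desaturases Scd1 and Scd2, the elongases Elovl1, Elovl5 and Elovl6, the transcription factor gene Srebf1 and the fatty acid binding protein gene Fabp5. They were chosen with earlier results of these data known, and their probes were found by gene symbol. The bead array carried 16 probes for these 10 genes among 45281 probes. A probe was used when 6 or more of the 9 arrays of any 1 group detected it above the negative controls (detection p under 0.05). By that filter 13 of the 16 probes and 9 of the 10 genes were measured, among 11945 measured genes in all.

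The study set lungs of fetuses from transferred blastocysts, derived in vitro or in vivo, against lungs of fetuses that developed without transfer. EG in vitro fetuses grew from blastocysts that were derived in vitro and then placed in pseudo-pregnant females. EG in vivo fetuses grew from blastocysts that had developed in vivo and were placed in pseudo-pregnant females as well, and control fetuses developed without transfer in naturally ovulating females. All were males of the strain C57BL/6 X BALBc taken on gestation day 18, the tissue was the left lobe of the lung, and each group held 3 pools with 3 technical arrays per pool. Both EG groups share the transfer and the recipient female, so these cannot be told apart in either comparison with controls, while EG in vitro and EG in vivo differ, by their labels, in the origin of the blastocyst. The labels give neither the number of fetuses per pool nor from when gestation was dated in mated and in recipient females, so a difference in developmental stage and an effect of transfer cannot be told apart. Nothing says that pools came from separate litters, and p-values measure only the spread between these pools.

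Fatty acids are built in the cytosol from acetyl-CoA. ATP citrate lyase (Acly) makes acetyl-CoA from citrate, acetyl-CoA carboxylase (Acaca) makes malonyl-CoA, and fatty acid synthase (Fasn) joins these units into palmitate. Elongases (Elovl) lengthen the chain, stearoyl-CoA desaturases (Scd) place a double bond in it, and SREBP-1, the product of Srebf1, is a transcription factor that drives many of these genes. Late in gestation the alveolar type II cells of the lung make fatty acids for surfactant, whose main phospholipid carries palmitate.

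Promoters are shown for 5 genes, because SREBP-1 is known to act at lipogenic promoters together with NF-Y, which binds CCAAT boxes, and Sp1, which binds GC boxes. The RefSeq table (build GRCm38.p6) held 10 start windows of 7 of the 10 genes. Scd1, Scd2 and Fabp5 had no entry. The 250 bases before the start are printed 5′ to 3′ on the gene's strand, with motif matches on either strand in capitals. The windows are those of Fasn at chr11:120824548-120824797 on the minus strand, Acly at chr11:100528001-100528250 on the minus strand, Srebf1 at chr11:60210472-60210721 on the minus strand, Elovl5 at chr9:77917115-77917364 on the plus strand and Elovl6 at chr3:129532136-129532385 on the plus strand.
Fasn: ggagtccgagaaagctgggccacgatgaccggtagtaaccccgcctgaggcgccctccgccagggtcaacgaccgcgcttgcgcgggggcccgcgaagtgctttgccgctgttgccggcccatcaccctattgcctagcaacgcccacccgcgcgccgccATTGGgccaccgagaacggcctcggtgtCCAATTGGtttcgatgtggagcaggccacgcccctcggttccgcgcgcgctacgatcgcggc
Acly: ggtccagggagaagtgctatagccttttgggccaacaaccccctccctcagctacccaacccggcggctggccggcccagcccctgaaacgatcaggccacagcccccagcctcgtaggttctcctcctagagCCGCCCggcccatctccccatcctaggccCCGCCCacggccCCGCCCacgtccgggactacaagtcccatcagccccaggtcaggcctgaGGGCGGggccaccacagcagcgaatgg
Srebf1: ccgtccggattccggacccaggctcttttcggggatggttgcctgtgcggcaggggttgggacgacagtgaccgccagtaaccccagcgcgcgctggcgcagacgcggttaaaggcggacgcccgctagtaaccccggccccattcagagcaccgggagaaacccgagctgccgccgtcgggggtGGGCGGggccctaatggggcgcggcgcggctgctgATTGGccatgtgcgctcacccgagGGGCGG
Elovl5: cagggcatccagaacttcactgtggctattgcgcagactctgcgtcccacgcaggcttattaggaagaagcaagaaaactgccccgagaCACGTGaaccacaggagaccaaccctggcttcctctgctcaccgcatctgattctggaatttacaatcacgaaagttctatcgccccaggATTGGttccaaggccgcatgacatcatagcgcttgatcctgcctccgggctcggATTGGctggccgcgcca
Elovl6: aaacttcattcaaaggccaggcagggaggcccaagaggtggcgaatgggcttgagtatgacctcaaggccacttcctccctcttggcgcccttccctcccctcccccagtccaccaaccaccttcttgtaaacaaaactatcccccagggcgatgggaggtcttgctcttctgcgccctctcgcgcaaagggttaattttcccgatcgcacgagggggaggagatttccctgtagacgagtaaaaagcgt

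The motifs searched, on both strands, were these: the sterol element TCACNCCAC, the E-box CACGTG, the CCAAT box CCAAT and the GC box GGGCGG. The capitals of the Fasn window mark 3 CCAAT matches, of which 2 overlap by 2 bases. The Acly window held 4 GC boxes, the printed Srebf1 window 1 CCAAT box and 2 GC boxes, and the Elovl5 window 1 E-box and 2 CCAAT boxes. No motif was found in the Elovl6 window. Srebf1 has 3 start windows in the table. Of those not printed, 1 held 2 GC boxes and no CCAAT box, and the other 1 CCAAT box and no GC box. Over the 10 windows, 0 held the sterol element, 1 the E-box, 5 a CCAAT box and 5 a GC box. Among all 32851 windows of the table the shares were 1.05% for the sterol element, 6.02% for the E-box, 33.8% for the CCAAT box and 32.7% for the GC box. A match is a run of letters and not a shown binding site, and the lack of a match does not show that a site is absent. Some genes gave several of the 10 windows, so these are not independent promoters.

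Each array detected 19762 to 23449 probes, and array medians lay between 113 and 170 before normalization. Replicate 3 of every group was dimmer, with a mean median signal of 117 in EG in vitro, 122 in EG in vivo and 122 in controls, against 145 to 167 in the other pools. The lung factor Nkx2-1 and the surfactant protein gene Sftpc, both defining for lung epithelium, were detected on all 27 arrays. Of 8 hepatocyte markers, Alb and Fgb were detected on 0 arrays and the other 6 on 10 to 26 arrays. Control replicate 1 was labelled male but carried Xist, the X-inactivation RNA, at a log2 level of 10.90, with the Y-linked gene Eif2s3y at 11.53, so this pool goes against its label in part. In EG in vitro replicates 1 and 2 its level was 5.45 and 5.41, with all 3 arrays detecting it, and the other pools had 0 arrays that did. Without control replicate 1 the member calls were the same except that of Elovl1 in EG in vitro.

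In both EG groups most of the measured genes were lower than in controls. Because the genes were chosen with earlier results of these data known, the shares below describe them and do not test the list. In EG in vitro against control, 7 of 9 genes fell, 1 rose and 1 did not pass (limma, adjusted p under 0.05), which is 88.9% called, against 44.8% of all 11945 genes in either direction, 21.8% higher and 23% lower, and 40.5% of all 22958 probes, 20.6% higher and 19.9% lower. In EG in vivo against control, 6 of 9 fell, 1 rose and 2 did not pass, which is 77.8% called, against 43.4% of all genes, 22.2% higher and 21.2% lower, and 39.2% of all probes, 20.3% higher and 18.9% lower. The pools of 8 genes in EG in vitro and of 7 in EG in vivo did not overlap those of controls, which held for 57.4% and 53.3% of all genes. The 9 genes had a median log2 change of -0.77 (EG in vitro) and -0.72 (EG in vivo), where all genes had 0.03 and 0.04. Regardless of sign, the median size was 0.89 (EG in vitro) and 0.80 (EG in vivo) for the 9 genes, against 0.48 and 0.46 over all genes. These counts are from the fit without the replicate number as a block. With that block 7 of the 9 genes fell and 1 rose in each EG group. Over all 22958 probes it gave 6841 higher and 5958 lower in EG in vitro, and 6625 and 5846 in EG in vivo. The EG in vitro and EG in vivo comparisons share their control pools, so their likeness is not independent. In a whole lobe, fewer cells of a type and less RNA per cell cannot be told apart.

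**Figure D1:**
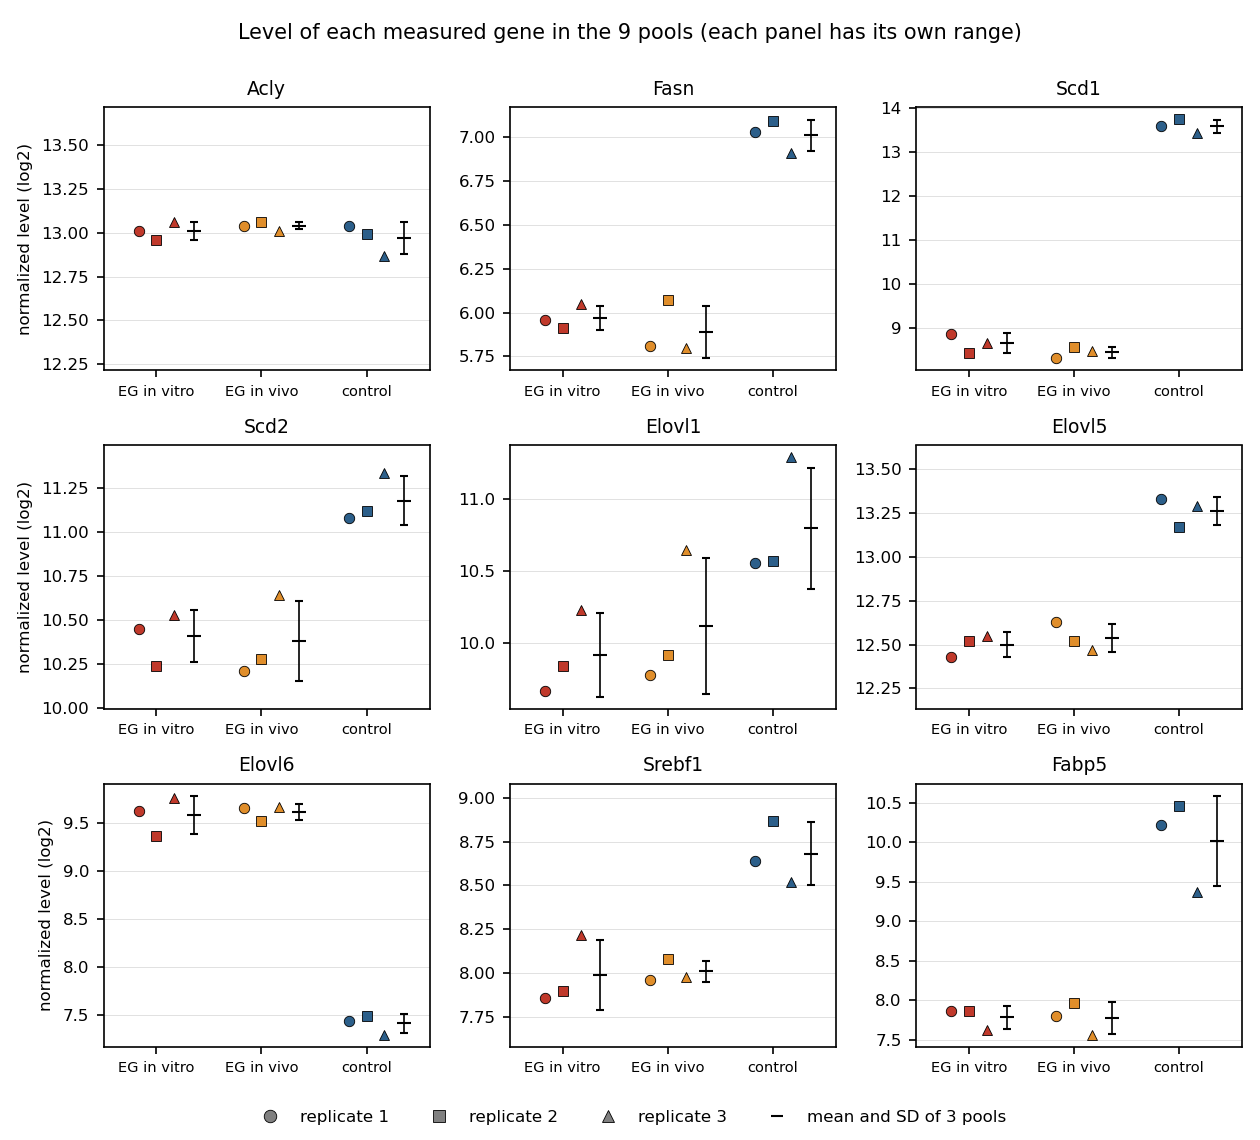
Normalized log2 level (y axis) of the 9 measured genes in EG in vitro, EG in vivo and control pools (x axis), with a point per pool, the symbol giving the replicate number, and a bar for the mean and SD of 3 pools. Scd1, Fasn, Scd2, Elovl5, Srebf1 and Fabp5 lie lower in every EG pool than in every control pool, Elovl6 lies higher in every EG pool, and the Acly values overlap.

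Acly, which makes cytosolic acetyl-CoA, was the 1 measured gene that passed in neither EG group. Its log2 level was 13.01, 12.96 and 13.06 in EG in vitro pools, 13.04, 13.06 and 13.01 in EG in vivo pools, and 13.04, 12.99 and 12.87 in control pools. The 3 groups overlapped. The log2 change was 0.04 ± 0.10 (SE) in EG in vitro, with a 95% confidence interval of -0.19 to 0.27 and an adjusted p of 0.786. It was 0.07 ± 0.10 in EG in vivo, with an interval of -0.16 to 0.30 and an adjusted p of 0.645. Acaca, which makes malonyl-CoA, had 1 probe that was detected on 0 of 27 arrays, so these data give it no level and no test.

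Fasn, the synthase that completes palmitate, fell in both EG groups. Log2 levels were 5.96, 5.91 and 6.05 in EG in vitro pools, 5.81, 6.07 and 5.80 in EG in vivo pools, and 7.03, 7.09 and 6.91 in control pools. Every EG pool lay below every control pool. Fasn changed by a log2 value of -1.04 ± 0.12 in EG in vitro (2.06-fold lower, adjusted p = 0.000228) and -1.12 ± 0.12 in EG in vivo (2.17-fold lower, adjusted p = 0.000175). This probe was dim: its mean signal before background correction was 173 in EG in vitro, 173 in EG in vivo and 238 in controls, and it was detected on 8 of 9 EG in vivo arrays and on all others. The size of its change moved with the background step. In the authors' processed values it was -0.44 for EG in vitro (adjusted p = 0.000527) and -0.47 for EG in vivo (adjusted p = 0.000422).

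Scd1, the desaturase that makes oleate and palmitoleate, changed most of the 9 genes. Its log2 level was 8.88, 8.44 and 8.68 in EG in vitro pools, 8.32, 8.57 and 8.48 in EG in vivo pools, and 13.58, 13.74 and 13.43 in control pools. The nearest EG and control pools were 4.55 apart in EG in vitro and 4.86 apart in EG in vivo, against an SD within a group of at most 0.22. The log2 change of -4.92 ± 0.15 in EG in vitro (adjusted p = 1.35e-06) is 30.2-fold lower, with a 95% interval of 23.8 to 38.3. The log2 change of -5.12 ± 0.15 in EG in vivo (adjusted p = 2.04e-06) is 34.9-fold lower, with an interval of 27.5 to 44.3. Scd1 still stood above background in both EG groups, where its probe was detected on all arrays. Counted from the lowest log2 change, it ranked 19 among 11945 genes for EG in vitro and 11 for EG in vivo.

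Scd2, the desaturase isoform best known from fetal and brain tissue, fell as well. Scd2 had log2 levels of 10.45, 10.24 and 10.53 in EG in vitro pools, 10.21, 10.28 and 10.64 in EG in vivo pools, and 11.08, 11.12 and 11.34 in control pools. The groups did not overlap with controls, by 0.55 for EG in vitro and 0.44 for EG in vivo. On the log2 scale Scd2 changed by -0.77 ± 0.15 in EG in vitro (1.71-fold lower, adjusted p = 0.00414) and -0.80 ± 0.15 in EG in vivo (1.75-fold lower, adjusted p = 0.00364). The 95% intervals of the Scd1 and Scd2 changes did not overlap, with -1.13 to -0.42 for Scd2 against -5.26 to -4.57 for Scd1 in EG in vitro. The difference between both genes' changes was not tested itself.

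The mouse has 4 Scd genes side by side on chromosome 19, in the order Scd3, Scd2, Scd4 and Scd1, with 0 other coding genes between them in RefSeq. Scd3 was detected on 0 arrays of any group. The brighter probe of Scd4 was detected on 1 EG in vitro array, 3 EG in vivo arrays and 5 control arrays, below the filter. Whether the probe of one Scd gene also binds RNA of another was not tested.

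Elovl6, the elongase that takes palmitate to stearate, was the 1 gene that rose. Its log2 level was 9.63, 9.37 and 9.77 in EG in vitro pools, 9.66, 9.53 and 9.67 in EG in vivo pools, and 7.44, 7.49 and 7.29 in control pools. All 6 EG pools lay above the 3 control pools, by at least 1.88. The log2 change was 2.19 ± 0.13 in EG in vitro (4.55-fold higher, adjusted p = 9.7e-06) and 2.21 ± 0.13 in EG in vivo (4.64-fold higher, adjusted p = 1.16e-05). Counted from the highest log2 change, Elovl6 ranked 193 among 11945 genes for EG in vitro and 169 for EG in vivo.

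A second Elovl6 probe gave the same direction with a wide spread. It had log2 levels of 8.83, 8.28 and 6.38 in EG in vitro pools, 8.09, 8.48 and 6.13 in EG in vivo pools, and 6.05, 6.98 and 4.96 in control pools. Replicate 3 of each group was the low one on this probe, by 2.17 in EG in vitro, 2.15 in EG in vivo and 1.55 in controls against the mean of replicates 1 and 2. Control replicate 3 was detected on 0 of 3 arrays, so its level and the changes against controls are uncertain in size. The log2 change of 1.83 ± 0.83 in EG in vitro (adjusted p = 0.113) and of 1.56 ± 0.83 in EG in vivo (adjusted p = 0.173) did not pass. With the replicate number as a block the same changes had adjusted p of 0.000836 (EG in vitro) and 0.00195 (EG in vivo).

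Elovl5, which elongates polyunsaturated and shorter monounsaturated chains, fell in both EG groups. Elovl5 had log2 levels of 12.43, 12.52 and 12.55 in EG in vitro pools, 12.63, 12.52 and 12.47 in EG in vivo pools, and 13.33, 13.17 and 13.29 in control pools. No EG pool reached a control pool. On the log2 scale Elovl5 changed by -0.76 ± 0.11 in EG in vitro (1.69-fold lower, adjusted p = 0.000653) and -0.72 ± 0.11 in EG in vivo (1.65-fold lower, adjusted p = 0.000946).

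Elovl1, which elongates very long chains, was read by 4 probes, all with lower means in both EG groups. The brightest probe had log2 levels of 9.67, 9.84 and 10.23 in EG in vitro pools, 9.78, 9.92 and 10.65 in EG in vivo pools, and 10.56, 10.57 and 11.29 in control pools. Replicate 3 was the highest pool of each group, and EG in vivo replicate 3 lay above 2 of the control pools. The log2 change was -0.89 ± 0.29 in EG in vitro (adjusted p = 0.0395) and -0.69 ± 0.29 in EG in vivo (adjusted p = 0.096). With the replicate number as a block the adjusted p was 0.000368 for EG in vitro and 0.00141 for EG in vivo, so that the EG in vivo change passed as well.

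The EG in vitro call of Elovl1 did not hold on leaving out some single pools, also where the change itself was not smaller. It was lost without control replicate 1 (-1.01, adjusted p = 0.0532), control replicate 2 (-1.01, adjusted p = 0.0504) or control replicate 3 (-0.65, adjusted p = 0.106). It was also lost without EG in vitro replicate 1 (-0.77, adjusted p = 0.124), EG in vitro replicate 2 (-0.85, adjusted p = 0.105) or EG in vivo replicate 2 (-0.89, adjusted p = 0.0534). In EG in vivo the change passed without EG in vivo replicate 3 (-0.96, adjusted p = 0.0249) and was -0.45 without control replicate 3 (adjusted p = 0.253). Of the other 3 probes, 1 fell in both EG groups, by 1.22 in EG in vitro (adjusted p = 0.00197) and by 1.20 in EG in vivo (adjusted p = 0.00235). The remaining probes had changes of -0.84 and -0.59 in EG in vitro and of -0.93 and -0.56 in EG in vivo, with adjusted p from 0.0816 to 0.279. With the replicate block all 4 probes fell in both EG groups, with a highest adjusted p of 0.00438.

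**Figure D2:**
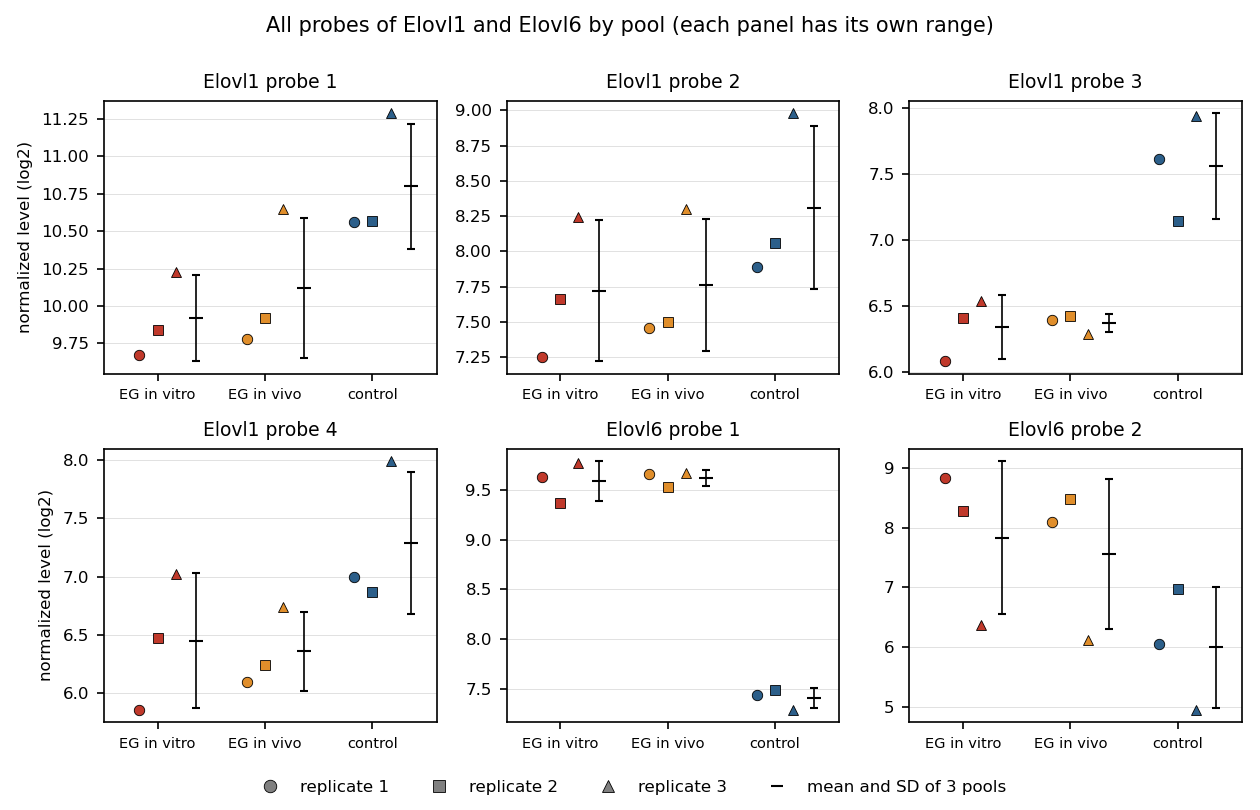
Normalized log2 level (y axis) on the 4 Elovl1 probes and the 2 Elovl6 probes in EG in vitro, EG in vivo and control pools (x axis), with a point per pool and a bar for the mean and SD of 3 pools. Replicate 3 (triangles) is the highest control pool on each Elovl1 probe and the lowest pool of each group on the second Elovl6 probe.

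Srebf1, the gene of the transcription factor SREBP-1, also fell. Its log2 level was 7.86, 7.90 and 8.22 in EG in vitro pools, 7.96, 8.08 and 7.98 in EG in vivo pools, and 8.64, 8.87 and 8.52 in control pools. All EG pools were lower, the nearest by 0.30. The log2 change was -0.69 ± 0.14 in EG in vitro (adjusted p = 0.00523) and -0.67 ± 0.14 in EG in vivo (adjusted p = 0.00604). A second Srebf1 probe was detected on 0 arrays. The probes were not assigned to the SREBP-1a or SREBP-1c transcript.

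Fabp5, a carrier of fatty acids in the cytosol, fell next after Scd1. Fabp5 had log2 levels of 7.86, 7.86 and 7.62 in EG in vitro pools, 7.80, 7.96 and 7.56 in EG in vivo pools, and 10.22, 10.46 and 9.37 in control pools. Control replicate 3 was 0.97 below the mean of the other control pools and still 1.41 or more above every EG pool. On the log2 scale Fabp5 changed by -2.24 ± 0.26 in EG in vitro (4.71-fold lower, adjusted p = 0.000257) and -2.24 ± 0.26 in EG in vivo (4.74-fold lower, adjusted p = 0.00028). A second Fabp5 probe was detected on 1 control array and on no other.

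Between EG in vitro and EG in vivo no difference passed the test for any of the 9 genes, nor for any of 22958 probes (limma, 0% called, with 285 probes at an unadjusted p under 0.05). The pools of 0 of the 9 genes stood apart, against 5.42% of all genes. With array weights 2 probes were called, and with all 27 arrays and the pool as a random block 1 was called. The largest difference among the 9 genes was that of Scd1, 0.21 with a 95% interval of -0.14 to 0.55. The intervals ran from -0.32 to 0.38 for Scd2, from -0.20 to 0.35 for Fasn and from -0.26 to 0.20 for Acly. Those of the elongases ran from -0.87 to 0.47 for Elovl1, from -0.28 to 0.20 for Elovl5 and from -0.33 to 0.27 for Elovl6. For Srebf1 the interval was -0.34 to 0.31, and for Fabp5 it was -0.59 to 0.61. These intervals are from the fit without the replicate block. With the block the Elovl1 difference of -0.20 had an SE of 0.11, against 0.29 without it, and its adjusted p was 1.

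**Figure D3:**
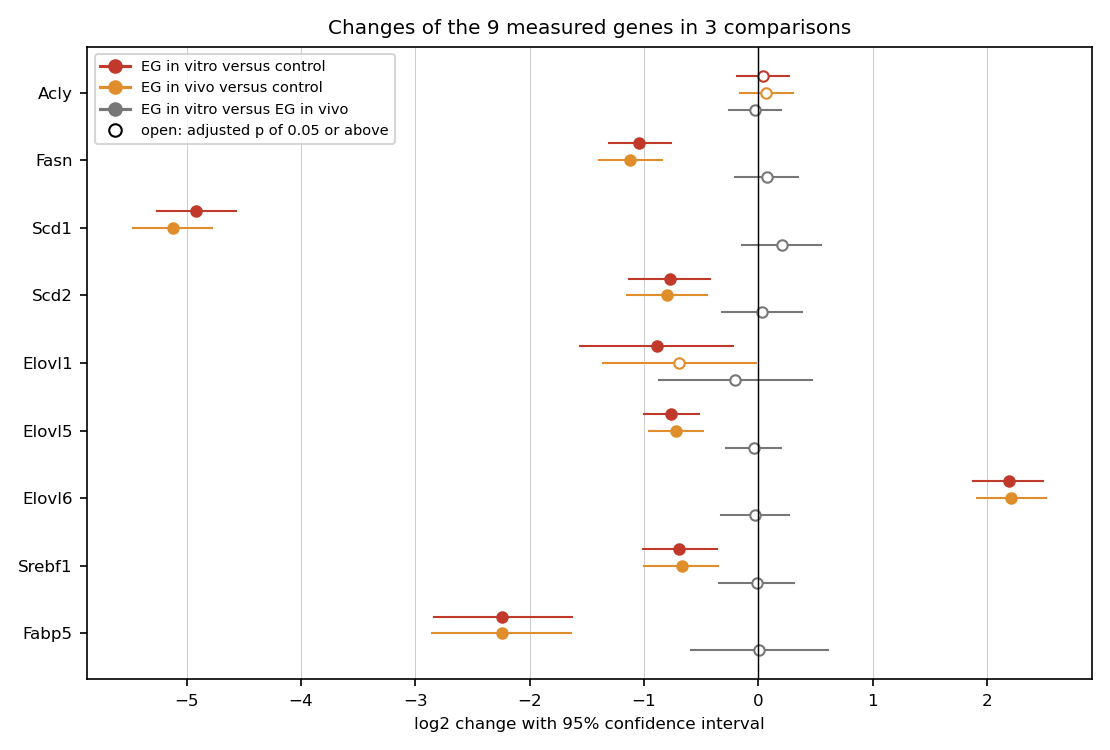
Log2 change (x axis) of the 9 measured genes (rows) with its 95% confidence interval, for EG in vitro against control, EG in vivo against control, and EG in vitro against EG in vivo. Filled points passed an adjusted p of 0.05, and all 9 points of the last comparison are open, with Scd1 at 0.21.

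Genes whose levels ran most like those of each member over the 9 pools were found by Pearson's r as a description. All pools of a group share the gap between EG and control in such a correlation. Scd1 was followed by Acoxl, an acyl-CoA oxidase-like gene (r = 0.9972), and by Pon1, a paraoxonase (r = 0.9968), which had log2 changes of -4.19 and -7.14 in EG in vitro. Elovl6 ran closest to Thyn1 (r = 0.9985) and to Ung, the uracil DNA glycosylase (r = 0.9984), which had log2 changes of 1.09 and 2.86 in EG in vitro. Fabp5 was matched by the prostaglandin receptor gene Ptger2 (r = 0.9973) and by Plscr2 (r = 0.9967). Elovl5 was closest to Ppp3ca (r = 0.9947) and to Asah1, the acid ceramidase (r = 0.9945). The other pairs were Arhgap29 and Rhof for Scd2, Slco2b1 and Furin for Fasn, Slc6a4 and Elac1 for Elovl1, and Fbxo15 and Cyb5a for Srebf1, all with r of 0.9801 or above. Acly had its closest genes at 0.9461 (Taf3) and 0.9032 (Snx16).

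The other enzymes of fatty acid synthesis, elongation and desaturation were split in direction. Of 20 measured among 25, 8 rose and 4 fell in EG in vitro (median log2 change 0.16), and 6 rose and 5 fell in EG in vivo (median 0.25). Over all genes, 21.8% rose and 23% fell in EG in vitro, and 22.2% rose and 21.2% fell in EG in vivo. Acss2, which makes acetyl-CoA from acetate, fell by 1.97 in EG in vitro (adjusted p = 1.64e-05) and by 1.85 in EG in vivo (adjusted p = 2.6e-05). The very long chain elongase gene Elovl4 rose by 1.35 (EG in vitro) and 1.41 (EG in vivo), and its probe was detected on 3 of 9 control arrays. That probe passed the detection filter through EG arrays alone, which favours a higher call. Elovl2, an elongase of polyunsaturated chains, rose by 1.01 in EG in vitro pools and 0.96 in EG in vivo pools, and Mecr, of mitochondrial fatty acid synthesis, by 0.84 (EG in vitro) and 0.82 (EG in vivo). Without EG in vivo replicate 2 the count in EG in vivo was 5 higher and 3 lower.

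Among regulators of lipogenic transcription, 18 of 20 were measured, with 1 higher and 5 lower in EG in vitro, and 1 higher and 4 lower in EG in vivo. The median log2 change was -0.29 in each. The share called over all genes was 44.8% for EG in vitro and 43.4% for EG in vivo. Nr1h3, the oxysterol receptor LXR-alpha, fell by 1.39 in EG in vitro (adjusted p = 0.0072) and by 1.22 in EG in vivo (adjusted p = 0.0137). Mid1ip1, an activator of acetyl-CoA carboxylase, fell by 0.95 (EG in vitro) and 1.02 (EG in vivo). Prkaa2, a catalytic subunit gene of AMP kinase, fell by 1.36 in EG in vitro, where 2 of 9 arrays detected it, and was at least 1.98-fold lower in EG in vivo, where 0 arrays did (adjusted p = 0.000288). The Prkaa2 probe passed the detection filter through control arrays alone, which favours a lower call. Pparg fell by 1.22 in EG in vitro (adjusted p = 0.0462) and had a change of -1.04 in EG in vivo (adjusted p = 0.0816).

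The replicate block raised the lower count of these regulators to 9 for EG in vitro and 7 for EG in vivo. The gene called higher was Mlxipl, which encodes ChREBP, named after its values were seen, with 0.68 in EG in vitro (adjusted p = 0.0337) and 0.78 in EG in vivo (adjusted p = 0.02). In EG in vitro it was not called without control replicate 1 or 2 or without any 1 EG in vitro pool, and in EG in vivo not without control replicate 1 or 2 or EG in vivo replicate 1, where the count was 0. Without EG in vivo replicate 3 the higher count in EG in vitro was 2.

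Of the enzymes that supply NADPH, 6 of 8 were measured, and 1 rose and 2 fell in each EG group (median log2 change -0.50 for EG in vitro and -0.43 for EG in vivo). The share called over all genes was 44.8% for EG in vitro and 43.4% for EG in vivo. H6pd of the endoplasmic reticulum fell by 1.20 in EG in vitro pools and 0.95 in EG in vivo pools, and Idh1, the cytosolic isocitrate dehydrogenase, fell by 0.60 (EG in vitro) and 0.77 (EG in vivo). Tkt, the transketolase of the pentose phosphate pathway, which does not itself make NADPH, rose by 0.80 in each. G6pdx and Pgd of that pathway were not measured. The lower count was 4 in each EG group with the replicate block. It was 1 in EG in vitro without control replicate 1 or EG in vitro replicate 1 or 2, and 1 in EG in vivo without EG in vivo replicate 1 or 2.

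Genes of fatty acid binding, uptake and activation had 1 higher and 6 lower of 17 measured among 25 in each EG group, where the share called over all genes was 44.8% for EG in vitro and 43.4% for EG in vivo (median log2 change -0.28 for EG in vitro and -0.24 for EG in vivo). Fabp12, a binding protein of the Fabp family, was detected on 0 EG arrays and all control arrays, which made it at least 9.8-fold lower in EG in vitro (adjusted p = 3.16e-06) and 9.08-fold lower in EG in vivo (adjusted p = 3.93e-06). Fabp3, the heart-type binding protein, fell by 1.70 (EG in vitro) and 1.31 (EG in vivo), and Acsl4, which activates arachidonate, fell by 1.43 (EG in vitro) and 1.30 (EG in vivo). Cd36, a fatty acid uptake receptor, had a change of -2.37 in EG in vitro (adjusted p = 0.0626) and fell by 2.63 in EG in vivo (adjusted p = 0.0441). It was detected on 4 of 9 EG in vitro arrays, 3 of 9 EG in vivo arrays and all control arrays, so these sizes are uncertain. Fabp12 and Cd36 passed the detection filter through control arrays alone, which favours lower calls. The gene that rose was the transporter gene Slc27a1 (0.72 in EG in vitro, 0.70 in EG in vivo), named after its values were seen. It was not called in EG in vitro without EG in vitro replicate 2, nor in EG in vivo without control replicate 2, and without EG in vivo replicate 3 the higher count was 2 in each.

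Glycerolipid and surfactant phospholipid synthesis, which uses these fatty acids, had 12 of 27 genes lower and 0 higher in each EG group. The median log2 change was -0.57 for EG in vitro and -0.48 for EG in vivo. Of all genes, 44.8% were called in EG in vitro (23% lower) and 43.4% in EG in vivo (21.2% lower). Abca3, the lamellar body lipid transporter, fell by 2.10 in EG in vitro (adjusted p = 1.78e-05) and by 1.82 in EG in vivo (adjusted p = 4.11e-05). Lpcat1, which remodels surfactant phosphatidylcholine, fell by 1.77 (EG in vitro) and 1.48 (EG in vivo). The phosphatidate phosphatase gene Lpin1 fell by 1.52 (EG in vitro) and 1.41 (EG in vivo), and Chpt1, a choline phosphotransferase, by 1.45 (EG in vitro) and 1.48 (EG in vivo). Abca3 and Lpcat1 also stand in the type II cell marker list.

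Mitochondrial fatty acid oxidation had 1 higher and 2 lower of 19 in EG in vitro, where 44.8% of all genes were called, and 1 higher and 1 lower in EG in vivo, where 43.4% were. The median log2 change was -0.10 for EG in vitro and -0.02 for EG in vivo. Of its chain-length specific dehydrogenases, the medium-chain Acadm fell by 0.76 (EG in vitro) and 0.70 (EG in vivo), the short-chain Acads rose by 0.66 (EG in vitro) and 0.71 (EG in vivo), and the very-long-chain Acadvl fell by 0.55 in EG in vitro (adjusted p = 0.0107) and had a change of -0.38 in EG in vivo (adjusted p = 0.0504). With the replicate block the lower count was 4 for EG in vitro and 3 for EG in vivo, and without control replicate 3 it was 2 in EG in vivo. Acads was not called in EG in vitro without control replicate 2 or EG in vitro replicate 3.

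Cholesterol synthesis genes, many of them targets of the related factor SREBP-2, had more calls higher than lower. Of 15 measured among 20, 6 rose and 1 fell in EG in vitro (median log2 change 0.59), and 6 rose and 0 fell in EG in vivo (median 0.57). Over all genes, 21.8% rose and 23% fell in EG in vitro, and 22.2% rose and 21.2% fell in EG in vivo. Dhcr7, of the last step, rose by 1.50 in EG in vitro pools and 1.38 in EG in vivo pools, and Hsd17b7 rose by 1.26 (EG in vitro) and 1.57 (EG in vivo). The lanosterol demethylase gene Cyp51 rose by 1.36 (EG in vitro) and 1.11 (EG in vivo), and Sqle, the squalene epoxidase, by 1.14 (EG in vitro) and 1.07 (EG in vivo). The gene that fell was Ebp (-0.46 in EG in vitro, adjusted p = 0.026), named after its values were seen. It was not called without control replicate 1 or 2 or without any 1 EG in vitro pool.

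**Figure D4:**
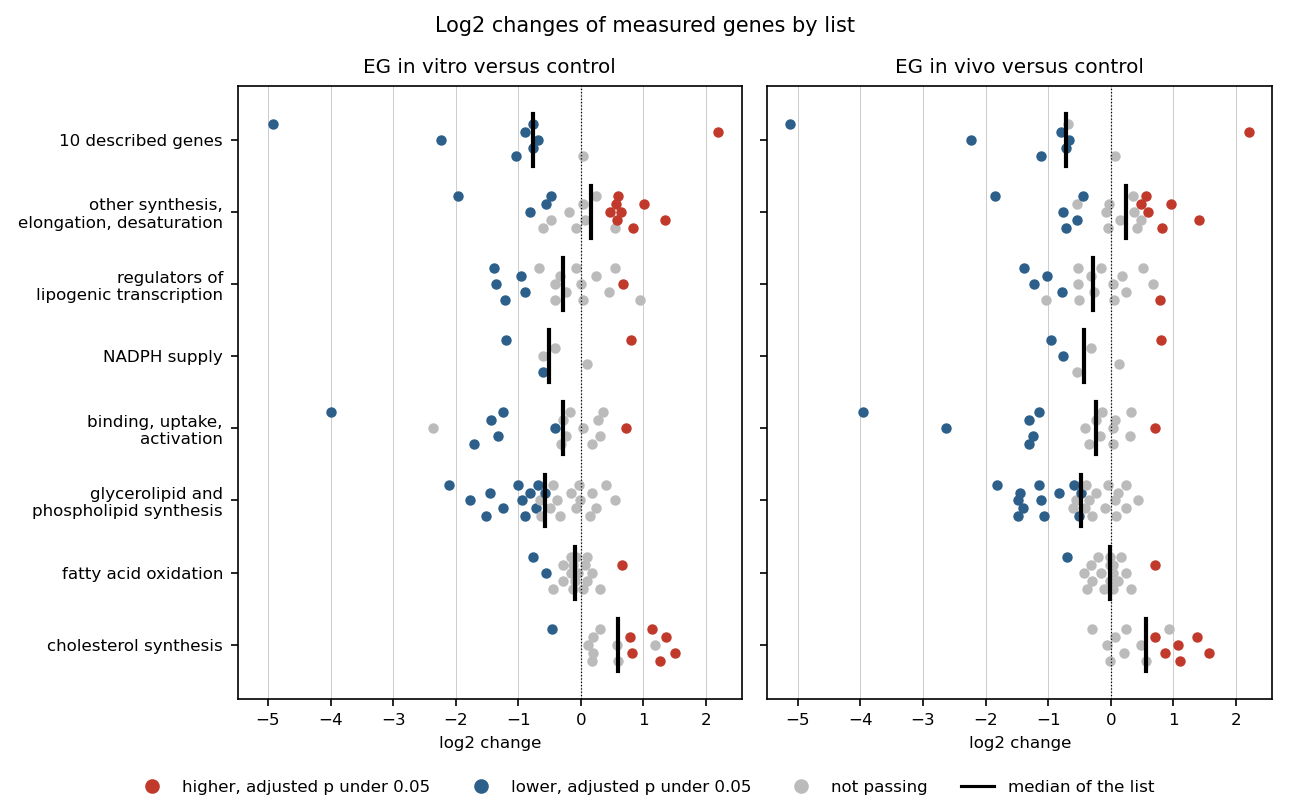
Log2 change (x axis) of each measured gene in 8 lists (rows), with EG in vitro against control on the left and EG in vivo against control on the right. Red points rose, blue points fell, grey points did not pass an adjusted p of 0.05, and the black bar is the list median, which is -0.77 and -0.72 for the described genes and 0.59 and 0.57 for cholesterol synthesis.

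Marker genes of several cell types are given next, and the part of these cell types in the results above was not tested. The counts of all marker lists stand beside these shares over all genes. In EG in vitro 44.8% were called (21.8% higher, 23% lower), and in EG in vivo 43.4% (22.2% higher, 21.2% lower). Of 11 alveolar type II cell markers, 10 fell and 0 rose in each EG group, with a median log2 change of -3.67 for EG in vitro and -3.33 for EG in vivo. Their summed linear level was 19400 to 22400 in EG in vitro pools, 22600 to 29600 in EG in vivo pools and 107000 to 112000 in control pools. Chil1, a chitinase-like protein gene, was at least 291-fold lower in EG in vitro, where 0 arrays detected it, and was detected on 2 EG in vivo arrays. This gene passed the detection filter through control arrays alone, which favours a lower call. Surfactant genes Sftpd and Sftpa1 fell by 7.62 and 5.27 in EG in vitro and by 6.86 and 4.83 in EG in vivo, and the lamellar body gene Lamp3 by 4.15 (EG in vitro) and 3.69 (EG in vivo). Without control replicate 3, 1 type II marker rose in each EG group. Nkx2-1 is named here outside the naming rule. It stands in the general epithelial list, where 4 of 10 markers fell in each EG group, and not among the type II markers. Its changes were -0.09 in EG in vitro (adjusted p = 0.727) and -0.10 in EG in vivo (adjusted p = 0.695).

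Lipofibroblasts, which store lipid beside the type II cells, had 8 of 8 measured markers lower in EG in vitro pools and 6 in EG in vivo pools. Their sum was 14700 to 15700 in EG in vitro, 14900 to 15800 in EG in vivo and 27800 to 30000 in control pools. Zfp36, Tcf21 and Lpl fell by 1.86, 1.42 and 1.33 in EG in vitro and by 1.73, 1.47 and 1.25 in EG in vivo, and Fabp4 was detected on 0 arrays. Of the adipocyte markers, 1 of 10 was measured, Pnpla2, which fell by 1.56 in EG in vitro and by 1.39 in EG in vivo (level 384 to 568 in EG in vitro, 408 to 789 in EG in vivo and 1130 to 2070 in control pools), while Adipoq, Cidec, Ucp1 and Lep were detected on 0 arrays.

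Dividing cell markers rose, 8 of 10 measured in each EG group, with sums of 27100 to 29100 in EG in vitro, 23900 to 26700 in EG in vivo and 4060 to 5830 in control pools. Aurkb, Mcm5, Tyms and Birc5 rose by 2.90, 2.84, 2.72 and 2.67 in EG in vitro and by 2.81, 2.78, 2.57 and 2.58 in EG in vivo. Of 9 macrophage markers, 8 fell in each EG group, with a median log2 change of -1.49 (EG in vitro) and -1.35 (EG in vivo). Their sums were 5650 to 6480 in EG in vitro, 5660 to 7280 in EG in vivo and 49000 to 57100 in control pools. Bright genes weigh most in such linear sums. Mean control log2 levels were 14.93 for Lyz1 and 13.97 for Lyz2, against 10.86 for Mpeg1 and 9.55 for Fcer1g. The macrophage sums therefore mainly follow Lyz1 and Lyz2. Which cells of the lobe carried the RNA of these genes was not tested. Lyz1, Lyz2, Mpeg1 and Fcer1g fell by 3.77, 3.34, 2.41 and 1.57 in EG in vitro, and by 3.64, 3.32, 2.33 and 2.69 in EG in vivo. Of 10 endothelial markers, 9 fell in EG in vitro pools and 10 in EG in vivo pools, with sums of 22900 to 26700 in EG in vitro, 24100 to 26900 in EG in vivo and, in control pools, 43700 to 55000. Vwf, Pecam1, Tie1 and Cdh5 fell by 1.89, 1.30, 1.17 and 1.06 in EG in vitro and by 1.67, 1.47, 1.17 and 1.03 in EG in vivo.

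Of 10 general epithelial markers 4 fell and 0 rose in each EG group, with sums of 22600 to 23800 in EG in vitro, 23000 to 25700 in EG in vivo and 28000 to 31100 in control pools. Krt19, Krt18, Cldn3 and Krt8 fell by 1.57, 0.82, 0.67 and 0.66 in EG in vitro and by 1.43, 0.64, 0.67 and 0.46 in EG in vivo. The EG in vivo count was 2 lower without control replicate 3 and 1 lower without EG in vivo replicate 1 or 2. Without EG in vivo replicate 1, 1 epithelial marker rose in EG in vivo. Mesenchymal markers had 1 higher (Dcn, by 1.18 in EG in vitro and by 0.95 in EG in vivo) and 3 lower (Tcf21, Pdgfrb and Pdgfra) of 9 in each, with sums of 36700 to 47500 in EG in vitro, 31300 to 44000 in EG in vivo and, in control pools, 39200 to 45800. Erythroid markers had 2 higher and 1 lower of 7, with sums of 64000 to 70600 in EG in vitro, 63500 to 71200 in EG in vivo and, in control pools, 64200 to 73700. Hbb-y, an embryonic globin, rose by 4.66 in EG in vitro and by 4.44 in EG in vivo. Hbb-bh1, another, also rose, by 2.61 in EG in vitro and by 2.57 in EG in vivo, but only 2 of 9 control arrays detected it, so its size is uncertain. Through EG arrays alone Hbb-bh1 passed the detection filter, which favours a higher call. Alas2 fell by 1.73 (EG in vitro) and 1.61 (EG in vivo), and Epb42 was detected on 0 arrays. Of 6 measured hepatocyte markers 0 passed in either direction, with sums of 356 to 3750 in EG in vitro, 294 to 1350 in EG in vivo and, in control pools, 217 to 463. Afp and Ttr had changes of 2.86 and 2.24 in EG in vitro and of 1.69 and 1.27 in EG in vivo, with adjusted p from 0.0533 to 0.299. Without EG in vitro replicate 3, 3 hepatocyte markers rose in EG in vitro, and without EG in vivo replicate 2, 1 did. Without EG in vitro replicate 1, 2 erythroid markers fell in EG in vitro, and without EG in vivo replicate 3, 1 epithelial marker rose in EG in vitro. With the replicate block 2 hepatocyte, 2 mesenchymal and 1 epithelial marker rose in EG in vitro, and 1 type II marker rose in EG in vivo.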

How the data were processed

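Fetal lung RNA was hybridized to Illumina bead arrays in 27 samples. The deposited non-normalized table gives an intensity per probe and array, with a detection p-value beside it, per the file headers. The authors' processed table holds intensity with array medians of 138.4 to 138.6, in the rank order of the first table. Its normalization and the scanner software are not stated by the labels. Probes were named from the platform annotation: 34885 had 1 gene symbol, 18 several and 10378 none, and 34807 matched RefSeq (GRCm38.p6) by gene ID. Members and lists were chosen with earlier results of these data known.

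neqc (limma 3.58.1, R 4.3.3, offset 16) corrected the background from the detection p-values, normalized by quantiles and took log2, and the detection filter left 22958 probes. Technical arrays were averaged, so n = 3 pools per group. The limma fit (lmFit, eBayes) held all 3 groups, with residual degrees of freedom of 6 and prior ones of 2.41, and p-values are two-sided and adjusted by Benjamini-Hochberg over all kept probes, at 0.05. Over all kept probes, 9292 passed in EG in vitro against control (40.5%; 20.6% higher and 19.9% lower) and 9011 in EG in vivo against control (39.2%; 20.3% higher and 18.9% lower). A gene stands for its kept probe of highest mean, and levels of different probes are not compared. A probe detected on 0 arrays of a group is given as "at least", its level there being set to the lowest signal detected on the array or its own, whichever was higher. Marker sums add linear levels of the measured markers of a list, and some genes stand in several lists.

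All 10 genes are named with all probes. Of each other list up to 4 genes with the largest change against control among those that passed were named, or 2 where none did, with markers detected on no array, and the 2 genes of highest Pearson r per member over 9 pools.

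Replicate numbers are given by the labels with no word on what they mark. Pools of the same number deviated together from their group means, with correlations of 0.50 to 0.83 in all 9 pairs. Pools of different numbers were not compared in this way, and replicate 3 was dimmer in every group. These correlations therefore cannot tell a pairing by number from that shared dimness. The main fit held no block, because no label says that a number is shared between groups. A fit with the number as a block was an alternative. Other alternatives were the authors' processed values, median scaling, no background correction, an offset of 50, other filters, array weights, the 27 arrays with the pool as a random block (consensus correlation 0.733), bright and dim pools as a block, replicates 1 and 2 alone, the mean over probes, and leaving out each pool. Precision is limited by the number of pools.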

Additional observations from a re-analysis of the deposited data

How the results depend on the processing

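Apart from Elovl1, every member passing against controls kept its direction and its call under all 21 alternatives in both EG groups. Some of these could not move a log2 change. Leaving out a pool of the EG group not compared was such a case, as was the mean over probes for genes with 1 kept probe. The replicate block changed no other member call than those of Elovl1 in EG in vivo and of the second Elovl6 and 2 weaker Elovl1 probes, and it gave 6841 higher and 5958 lower probes in EG in vitro and 6625 and 5846 in EG in vivo. Elovl1 lost its EG in vitro call under 7 alternatives, of which 6 left out a pool and 1 used no filter (adjusted p = 0.0759), and passed in EG in vivo under 8. Array weights gave 9566 higher and 8371 lower probes in EG in vitro, 8358 higher and 7361 lower ones in EG in vivo, and 2 lower ones between EG in vitro and EG in vivo, but the weights stopped short of convergence. With bright and dim pools as a block 7107 probes rose in EG in vitro, and with 27 arrays and the pool as a random block 1 probe fell between EG in vitro and EG in vivo. The cause was not tested. Leaving out 1 pool gave 3736 to 5200 higher and 3510 to 4932 lower probes in EG in vitro, 3742 to 4749 and 3404 to 4439 in EG in vivo, and 0 between the EG groups.

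Values that did not pass turned their sign near 0. Acly in EG in vitro was -0.07 with array weights, -0.03 with replicates 1 and 2 alone, and -0.01 to 0.08 on leaving out a pool. Between EG in vitro and EG in vivo, Scd2 was -0.03 with median scaling, Fasn -0.01 and Fabp5 -0.02 with replicates 1 and 2 alone, and Elovl6 0.12 as the mean over probes. On leaving out a pool that difference ran from -0.06 to 0.16 for Scd2, -0.37 to 0.07 for Elovl1, -0.12 to 0.08 for Elovl6, -0.13 to 0.05 for Srebf1 and -0.10 to 0.10 for Fabp5. Signal over background limits Fasn, whose fold size depends on the background step, and the second Elovl6 probe, which was detected on 0 arrays of control replicate 3. Other sizes were also smaller in the authors' processed values. There the log2 change in EG in vitro was 1.63 for Elovl6, -1.78 for Fabp5, -0.50 for Srebf1 and -4.59 for Scd1. In EG in vivo these were 1.66, -1.79, -0.49 and -4.75. Scd2 and Elovl5 moved less, to -0.73 and -0.75 in EG in vitro.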
